A study of Mus musculus with 15 samples.

Results

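The genes examined here encode the enzymes that cut and glycosylate Notch receptors: the convertase Furin, the sheddases Adam10 and Adam17, the γ-secretase subunits Psen2 and Ncstn, the O-fucosyltransferase Pofut1 and the 3 Fringe enzymes Lfng, Mfng and Rfng. They were chosen by symbol, and all 9 were found among the 18193 genes that the array measured with a probe set naming 1 gene. Together they had 20 probe sets, with 4 for Adam10, 3 each for Adam17 and Pofut1, 2 each for Psen2, Ncstn, Lfng and Rfng, and 1 each for Mfng and Furin. RNA came from male C57BL6J mice aged 10 to 12 weeks that carried 1 intact copy of Notch3 (Notch3 +/-) or none (Notch3 -/-), and it was read on 15 Affymetrix mouse arrays. Cells sorted from brain by FACS and labelled SMC/pericyte, the contractile cells that wrap small vessels, gave 4 Notch3 +/- arrays, named E, G, I and H, and 5 Notch3 -/- arrays, named A, B, C, D and F, with 1 mouse to an array by the study's design text. Aorta explants gave 3 Notch3 +/- arrays (5556, 5561 and 6166) and 3 Notch3 -/- arrays (5558, 5559 and 6167); nothing says that these were separate mice, so aorta p-values measure the spread between those samples, which may be technical. No wild-type arrays were analysed, so every genotype comparison sets no copy of Notch3 against 1 copy, and the labels do not describe the allele.

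A Notch receptor is cut by Furin-type convertases on its way to the cell surface, where ligand binding exposes it to a sheddase, mainly ADAM10. The remaining stub is then cut within the membrane by γ-secretase, in which a presenilin such as PSEN2 is the catalytic subunit and nicastrin (Ncstn) the subunit that admits the substrate, and the released intracellular domain acts on transcription with the DNA-binding protein RBPJ. POFUT1 puts O-linked fucose on the EGF-like repeats of the receptor, and the Fringe enzymes lengthen that fucose with N-acetylglucosamine, which shifts the receptor's response between Delta and Jagged ligands. NOTCH3 is a main Notch receptor of vascular smooth muscle, and NOTCH1 and NOTCH4 are main Notch receptors of endothelium.

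The promoters of a pair of Fringe genes are shown because Rfng was among the members whose level differed most between the tissues, and because Lfng is known as a target of Notch in the somite clock. The RefSeq promoter table (GRCm38.p6) held 8 of the 9 members, in 10 windows of 300 bases that run from 250 before to 50 after a transcription start. The RBPJ core TGGGAA, or its reverse complement TTCCCA, was in 2 of these 10 windows, those of Lfng and of 1 of the 2 Psen2 starts, and in 25.6% of all 32851 windows in the table. In the 250 bases upstream of Lfng (chr5:140607091-140607340, plus strand) and of Rfng (chr11:120784205-120784454, minus strand), written 5′ to 3′, capitals mark that core.
Lfng: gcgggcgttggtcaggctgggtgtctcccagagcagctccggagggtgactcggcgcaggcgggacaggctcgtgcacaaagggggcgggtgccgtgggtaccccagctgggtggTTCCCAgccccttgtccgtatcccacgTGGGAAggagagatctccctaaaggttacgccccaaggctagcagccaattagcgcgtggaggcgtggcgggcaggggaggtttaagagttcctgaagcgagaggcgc
Rfng: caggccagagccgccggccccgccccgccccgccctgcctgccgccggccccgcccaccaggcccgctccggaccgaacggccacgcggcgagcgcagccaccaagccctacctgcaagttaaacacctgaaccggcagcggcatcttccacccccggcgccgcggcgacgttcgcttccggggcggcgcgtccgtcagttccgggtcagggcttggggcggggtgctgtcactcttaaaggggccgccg
The Lfng window held the core once in each direction. The Rfng window had no match to these letters and was dense in CG, with 44 CG dinucleotides, at or above 98.1% of all windows, where the median window had 7 and Lfng 22.

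Array values are linear intensities that the authors scaled to a target of 150. Differences are given on the log2(intensity + 16) scale, which understates the change of dim probe sets. A probe set was tested when its mean log2 value reached the median of all probe sets over the arrays compared, which left 22519 in each comparison, and it was called at a Benjamini-Hochberg adjusted p under 0.05. Each member is described at its brightest probe set, with the others beside it. Notch3, the targeted gene, followed the labels: its brightest probe set read 2616 ± 222 (SD, n = 4) in Notch3 +/- brain and 210 ± 37.1 (n = 5) in Notch3 -/- brain, and 401 ± 47.2 against 108 ± 34.1 in aorta (n = 3 each), with no overlap in either tissue (adjusted p = 4.31e-08 in brain and 0.135 in aorta). The sorted brain cells carried the smooth muscle markers and 6 of 7 pericyte markers (Anpep had a mean under 50), but also markers of other cells. The summed intensity of 9 endothelial markers (Pecam1, Cdh5, Cldn5, Tek, Kdr, Flt1, Tie1, Emcn, Vwf) was 19566.8 to 32800.3 on the brain arrays and 2903 to 3669 on the aorta arrays. The 4 oligodendrocyte markers that the array measured summed to 19321.5 to 29788.7 in brain against 85.99 to 434.8 in aorta, and 5 ependymal and choroid plexus markers to 18605.8 to 44996.9 against 60.89 to 100.9. In Notch3 +/-, the tested genes of these 2 lists differed between brain and aorta by 2.28 to 7.39 (median 2.54) and 1.96 to 10.1 (median 2.04). Neither sum was thus spread evenly over its markers. In aorta the 5 fibroblast markers summed to 21549.2 to 24566.9, against 1055 to 4632 in brain.

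In sorted brain cells, none of the processing genes was called different between Notch3 -/- and Notch3 +/-. Of their 20 probe sets 12 were tested, 0 were called by limma and 0 had an unadjusted p under 0.05, where 0.142% of all tested probe sets were called and 9.39% had such an unadjusted p. The genotypes overlapped at all 12 of these, where 3.3% of all tested probe sets had no overlap. The median difference of the 12 was -0.13, beside 0.01 over all tested probe sets. Beside these values, the summed smooth muscle markers read 22458.7 to 39240.2 in Notch3 +/- brain and 11426.7 to 18806.5 in Notch3 -/- brain, with 3 of the 6 markers called lower. The 5 fibroblast markers summed to 1055 to 1805 in Notch3 +/- brain and 1772 to 4632 in Notch3 -/- brain, with a median difference of 0.89 and a smallest adjusted p of 0.15, for Dcn. The part of these shifts in the members' values was not tested.

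Furin, which makes the first cut, read 142, 87.3, 178 and 218 on the Notch3 +/- brain arrays E, G, I and H and 235, 132, 109, 100.3 and 108 on the Notch3 -/- arrays A, B, C, D and F. The groups overlapped across their whole width, with the highest value on a Notch3 -/- array and the lowest on a Notch3 +/- array. Its difference was -0.18 with a 95% interval of -0.74 to 0.39 (adjusted p = 0.877). In aorta Furin read 157, 120 and 169 in Notch3 +/- and 150.2, 148 and 151 in Notch3 -/-, a difference of 0.02 with an interval of -0.30 to 0.34.

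Adam10, the main ligand-dependent sheddase, had the smallest adjusted p of any member in the brain comparison and still did not pass. On its brightest probe set it read 1074, 1367, 1124 and 1103 in Notch3 +/- brain and 1549, 1473, 1471, 1154 and 1670 in Notch3 -/- brain. All but array D of the Notch3 -/- arrays were above every Notch3 +/- array. The difference was 0.32 (SE 0.15, interval -0.01 to 0.65, adjusted p = 0.542), and the two-sided exact permutation test over the 126 splits of the 9 arrays gave p = 0.0476, unadjusted. In aorta it read 1181, 1267 and 1172 in Notch3 +/- against 1332, 1329 and 1417 in Notch3 -/-, with no overlap. That difference was 0.17 (SE 0.08, interval -0.00 to 0.34, adjusted p = 0.999), and with 3 arrays against 3 no exact permutation p can be under 0.1, the value it had. Arrays of the 2 genotypes did not overlap at 9.47% of all tested probe sets in aorta, with Notch3 -/- higher at 4.72% and lower at 4.75%. The other Adam10 probe sets did not all share this direction: the second by brightness was higher in Notch3 -/- aorta (93.6 to 94.6 against 79.2 to 93.0) but had a lower mean in Notch3 -/- brain (31.1 ± 19.3, n = 5, against 37.2 ± 13.4, n = 4), and the 2 dimmest had lower means in both tissues. All 3 had means under 50 in both brain groups and lay under the brightness filter there.

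Adam17, the other sheddase, read 372, 447, 394 and 366 on its brightest probe set in Notch3 +/- brain and 357, 368, 484, 439 and 473 in Notch3 -/- brain. These ranges overlapped, with a difference of 0.09 and an interval of -0.23 to 0.42 (adjusted p = 0.889). Its dimmest probe set stood apart in brain: it read 34.0, 16.8, 29.5 and 30.9 in Notch3 +/- and 51.8, 50.4, 39.5, 61.2 and 39.2 in Notch3 -/-. The arrays did not overlap, the difference was 0.56, and the exact permutation p was 0.00794, the smallest that 126 splits can give. This probe set lay under the brightness filter, where arrays of the 2 genotypes did not overlap at 1.63% of probe sets, and the second Adam17 probe set differed by -0.12 with overlap, so the 3 probe sets of the gene disagree. In aorta the brightest Adam17 probe set read 424, 496 and 431 against 491, 426 and 495, a difference of 0.06 (interval -0.18 to 0.31).

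Of the γ-secretase subunits, Psen2 read 121, 116, 95.9 and 188 on its brightest probe set in Notch3 +/- brain and 102, 114, 142, 101 and 99.3 in Notch3 -/- brain. The groups overlapped, with array H alone above the rest, and the difference was -0.17 (interval -0.59 to 0.26, adjusted p = 0.828). Ncstn read 112, 78.3, 146 and 49.5 in Notch3 +/- brain and 99.7, 78.2, 78.3, 73.1 and 68.5 in Notch3 -/- brain. The Notch3 +/- values spanned the Notch3 -/- values on both sides; the difference was -0.16 (interval -0.68 to 0.36, adjusted p = 0.873). In aorta the differences were -0.03 for Psen2 (interval -0.41 to 0.36) and -0.08 for Ncstn (interval -0.44 to 0.27), both with overlapping arrays.

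Pofut1 read 364, 318, 279 and 304 in Notch3 +/- brain and 309, 288, 330.4, 271 and 239 in Notch3 -/- brain on its brightest probe set. These values overlapped, at a difference of -0.13 (interval -0.46 to 0.20, adjusted p = 0.826), and in aorta the difference was 0.01 (interval -0.24 to 0.25).

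Among the Fringe genes in brain, Mfng read 427, 648, 402 and 742 in Notch3 +/- and 481, 864, 634, 474 and 599.8 in Notch3 -/-. Both groups held arrays near the low end and the high end, and the difference was 0.15 (interval -0.33 to 0.62, adjusted p = 0.875). Rfng read 1657, 1319, 1858 and 1951 in Notch3 +/- and 1741, 1750, 1447, 1809 and 1597 in Notch3 -/-. Its difference was -0.01 (interval -0.34 to 0.32, adjusted p = 0.989). Lfng had the lowest means of the members' brightest probe sets, at 45.5, 29.5, 60.0 and 19.7 in Notch3 +/- and 72.0, 18.7, 91.5, 58.4 and 48.3 in Notch3 -/-. Its 2 groups overlapped widely, and the difference of 0.40 had an interval of -0.30 to 1.09 (adjusted p = 0.74).

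In aorta, 13 member probe sets were tested and 0 were called by limma, with 0 at an unadjusted p under 0.05; over all probe sets 0% were called and 4.35% had such an unadjusted p. Rfng was the one gene besides Adam10 with probe sets whose genotypes did not overlap in aorta, on both of its probe sets and lower in Notch3 -/-. The brightest read 512, 538 and 498 in Notch3 +/- and 451, 475 and 496 in Notch3 -/-, a difference of -0.12 (interval -0.33 to 0.09), and the other differed by -0.48 (interval -1.03 to 0.07). Thus 4 of 13 tested member probe sets did not overlap, beside 9.47% of all tested probe sets, from 2 genes, each at the smallest exact permutation p of 0.1 and an adjusted p of 0.999. Mfng read 96.3, 106 and 96.2 against 96.7, 73.7 and 88.5, which overlapped.

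Whether the genotype difference itself was unlike in brain and aorta was tested on all 15 arrays. None of the 12 member probe sets tested was called by limma (0.0178% of all probe sets were), 0 had an unadjusted p under 0.05 (4.76% of all did), and every adjusted p was 0.997. The differences between tissues ran from -0.38, for the second Adam10 probe set, to 0.33, for Mfng (interval -0.31 to 0.97). The intervals still allow sizeable effects: in brain, a rise of Adam10 by up to 1.56-fold lies within its interval.

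**Figure D1:**
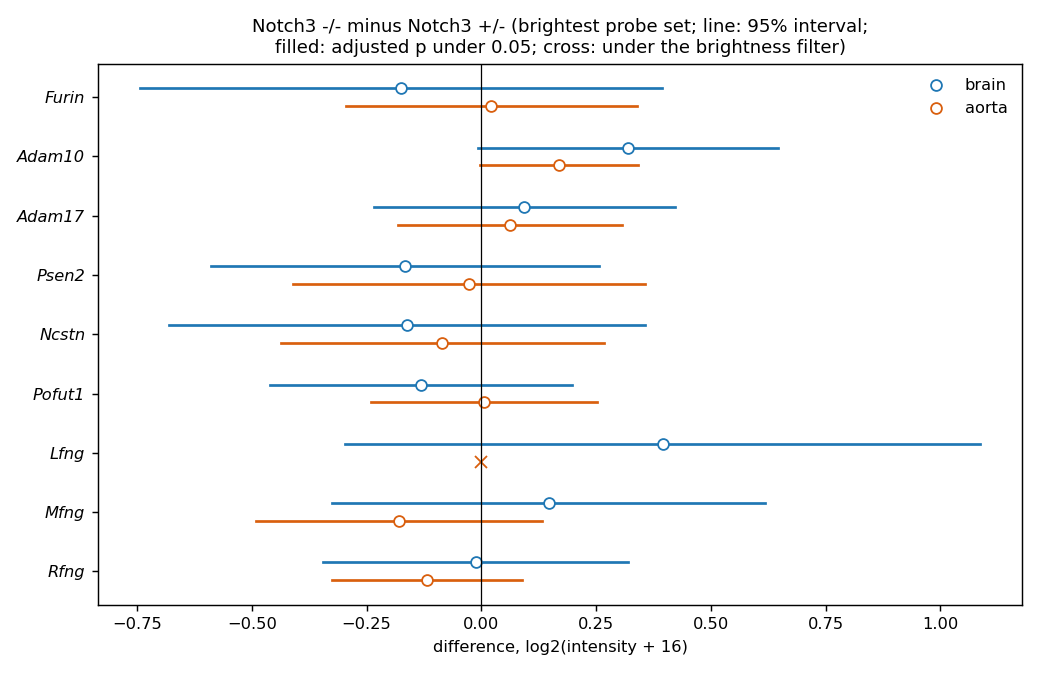
Difference of Notch3 -/- minus Notch3 +/- on the log2(intensity + 16) scale for each member's brightest probe set, in brain (blue, 5 against 4 arrays) and aorta (orange, 3 against 3), with limma 95% intervals. No point is filled, since no adjusted p was under 0.05; Adam10 lies above 0 in both tissues with intervals that reach -0.01 and -0.00, and Lfng in aorta (cross) was under the brightness filter.

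Between the tissues, Mfng and Rfng stood out among the members: both were higher in sorted brain cells than in aorta in each genotype. At their brightest probe sets, Ncstn (-0.60 in Notch3 +/- and -0.68 in Notch3 -/-) and Pofut1 (-0.31 and -0.45) lay below aorta in brain. Both were called in Notch3 -/- alone. Furin, Adam17 and the brightest Adam10 and Psen2 probe sets were not called in either genotype. Of 12 member probe sets tested in Notch3 +/-, 3 were called higher and 1 lower in brain, and of 13 tested in Notch3 -/-, 3 higher and 3 lower. Over all tested probe sets 51.8% were called in Notch3 +/- (26.5% higher in brain and 25.2% lower) and 62.5% in Notch3 -/- (33.6% higher and 28.9% lower), so the members were called no more often than the array as a whole. Brain RNA was extracted from sorted cells with 1 kit, and aorta RNA from whole tissue with Trizol and 2 kits, so tissue, cell makeup and extraction cannot be told apart; in such bulk samples, neither can fewer cells of a type and less RNA per cell.

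Mfng (probe set 1416992_at) read 427, 648, 402 and 742 in Notch3 +/- brain against 96.3, 106 and 96.2 in Notch3 +/- aorta. In Notch3 -/- it read 481, 864, 634, 474 and 599.8 in brain against 96.7, 73.7 and 88.5 in aorta. No brain array came near an aorta array; brain and aorta arrays did not overlap at 56.2% of all tested probe sets in Notch3 +/- and 60% in Notch3 -/-. The difference was 2.26 (SE 0.22, interval 1.77 to 2.76, adjusted p = 1.25e-05) in Notch3 +/- and 2.59 (SE 0.19, interval 2.18 to 2.99, adjusted p = 6.55e-08) in Notch3 -/-, that is 4.79-fold and 6.01-fold on this scale. Of all tested probe sets, 3.45% and 2.88% lay at least as far above aorta. The order of its group means was Notch3 -/- brain, Notch3 +/- brain, Notch3 +/- aorta and Notch3 -/- aorta, with overlap between genotypes within each tissue.

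The endothelial markers moved in the same direction as Mfng: 8 of 9 were called higher and 1, Pecam1, lower in brain in each genotype, and their median difference was 1.39 in Notch3 +/- and 1.41 in Notch3 -/-. Markers of other brain cells were higher there too, with astrocyte markers called in 6 of 6 (medians 3.44 and 3.66) and oligodendrocyte markers in 3 of 3 tested (2.54 and 2.53) in each genotype, and ependymal and choroid plexus markers in 3 of 3 and 4 of 4 tested (2.04 and 3.17). On the aorta arrays alone, 8 of 9 endothelial, 3 astrocyte, 1 oligodendrocyte and 1 ependymal or choroid plexus marker reached the brightness filter. The others entered the tissue tests through the brain arrays, where they are high, so their calls carry no weight as tests. Of 6 pericyte markers tested, 4 were higher and 1 lower in Notch3 +/- brain, and 3 higher and 2 lower in Notch3 -/- brain (medians 0.96 and 0.38). The pericyte counts may carry the same limit: 6 of 7 markers reached the filter on the aorta arrays alone, and Vtn had a mean under 50 in both aorta groups. Of 6 smooth muscle markers, 2 were higher and 4 lower, then 1 higher and 4 lower (medians -1.46 and -3.13). The part of endothelial, mural and other cells in the Mfng and Rfng results was not tested.

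Rfng (brightest probe set 1460704_at) read 1657, 1319, 1858 and 1951 in Notch3 +/- brain against 512, 538 and 498 in aorta, and 1741, 1750, 1447, 1809 and 1597 in Notch3 -/- brain against 451, 475 and 496. Every brain array lay above every aorta array. The difference was 1.67 (SE 0.17, interval 1.30 to 2.04, adjusted p = 1.43e-05) in Notch3 +/- and 1.78 (SE 0.12, interval 1.52 to 2.04, adjusted p = 3.16e-08) in Notch3 -/-, or 3.19-fold and 3.43-fold. As far or farther above aorta lay 6.43% and 6.49% of all tested probe sets. Its dimmer probe set pointed the other way, at 12.4 to 41.7 in Notch3 +/- brain against 59.1 to 75.6 in aorta, a difference of -0.98 with no overlap (exact permutation p = 0.0571), and at -0.88 with overlap in Notch3 -/- (exact permutation p = 0.125). It was under the brightness filter in both comparisons, where arrays did not overlap at 20.5% of probe sets in each, so the direction given for Rfng is that of its brightest probe set alone. In Notch3 +/- the dimmer one was called lower in brain with no filter (adjusted p = 0.0343) and, where it then reached the filter, without brain array I (-0.79, adjusted p = 0.0246) or H (-0.90, adjusted p = 0.0297); in Notch3 -/- it was not called with no filter (adjusted p = 0.0931).

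The group means of Lfng were also higher in brain, but its arrays overlapped. It read 45.5, 29.5, 60.0 and 19.7 in Notch3 +/- brain against 17.03, 11.6 and 27.5 in aorta, and 72.0, 18.7, 91.5, 58.4 and 48.3 in Notch3 -/- brain against 14.1, 18.4 and 22.2. Array H of Notch3 +/- and array B of Notch3 -/- fell within the aorta range. The differences were 0.62 (exact permutation p = 0.114) and 1.02 (exact permutation p = 0.0714) under the brightness filter. Its other probe set was between 1.01 and 8.32 on every array.

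**Figure D2:**
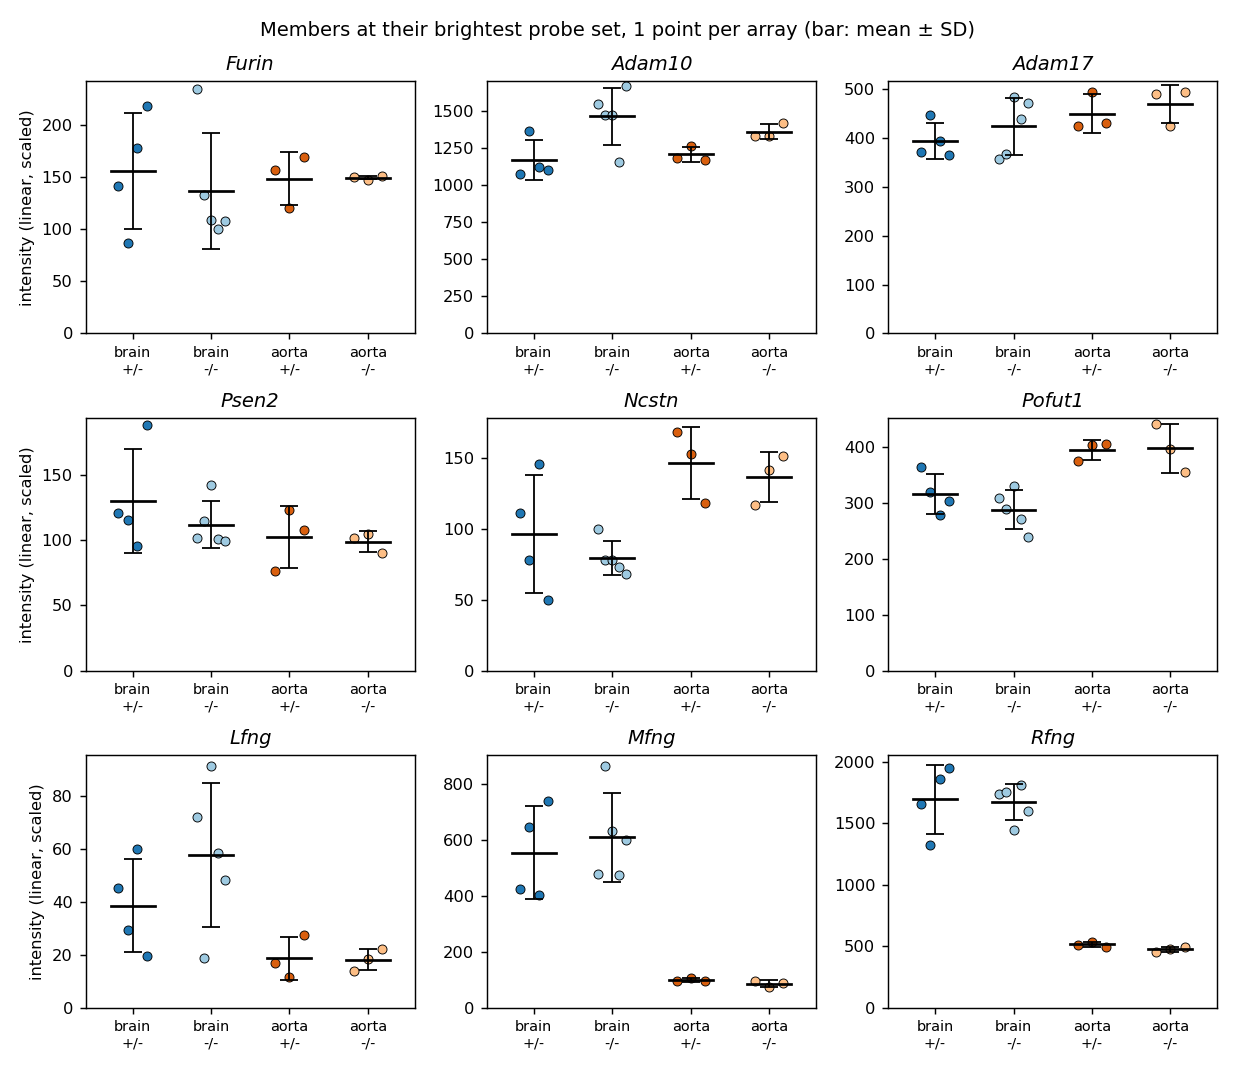
Linear scaled intensity of each member at its brightest probe set on the 15 arrays, 1 point per array, with the mean and SD of the 4 tissue-by-genotype groups and a separate axis from 0 for each gene. Mfng and Rfng show the brain arrays (402 to 864 and 1319 to 1951) apart from the aorta arrays (73.7 to 106 and 451 to 538), while Furin, Adam17 and Psen2 overlap in all 4 groups.

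Pofut1, whose fucose the Fringes extend, had the opposite direction from Mfng and Rfng on its brightest probe set. It read 364, 318, 279 and 304 in Notch3 +/- brain against 374, 403 and 406 in aorta, without overlap but not called (difference -0.31, SE 0.16, interval -0.65 to 0.03, adjusted p = 0.118). In Notch3 -/- it fell by 0.45 below aorta (309, 288, 330.4, 271 and 239 against 441, 396 and 355; SE 0.14, interval -0.76 to -0.14, adjusted p = 0.0147). The second Pofut1 probe set overlapped between tissues and had differences of 0.28 (adjusted p = 0.325) and 0.22 (adjusted p = 0.352), so the probe sets disagree. Without aorta array 5558 the Notch3 -/- difference of the brightest was -0.37 (adjusted p = 0.0872).

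Ncstn read 112, 78.3, 146 and 49.5 in Notch3 +/- brain against 168, 153 and 119 in aorta, where array I overlapped the aorta arrays (difference -0.60, SE 0.29, interval -1.24 to 0.04, adjusted p = 0.104). Without array I the difference was -0.80 (adjusted p = 0.0284), the 1 of 7 fits leaving out 1 array in which Ncstn passed. Without array H, which had the lowest value, Ncstn differed by -0.37 (adjusted p = 0.206). In Notch3 -/- it read 99.7, 78.2, 78.3, 73.1 and 68.5 in brain against 117, 142 and 151 in aorta. Those groups did not overlap, and Ncstn fell by 0.68 (SE 0.17, interval -1.04 to -0.32, adjusted p = 0.00298). The other Ncstn probe set was between 1.36 and 5.56 on every array.

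For Psen2 the probe sets split. The brightest overlapped between tissues in both genotypes (differences 0.28 and 0.15, adjusted p = 0.343 and 0.455). The second read 73.1, 82.5, 96.5 and 115 in Notch3 +/- brain against 33.0, 38.1 and 34.7 in aorta, with no overlap, a difference of 1.06 (SE 0.21) and an adjusted p of 0.00158. In Notch3 -/- it read 96.6, 42.5, 48.8, 99.2 and 89.5 against 19.2, 44.7 and 52.7, where arrays B and C fell among the aorta values. That difference of 0.73 (SE 0.29, adjusted p = 0.0411) passed with all 8 arrays and did not pass without brain array A, D or F or aorta array 5558 or 5559 (adjusted p = 0.0819, 0.0875, 0.0815, 0.235 and 0.0546), nor with no filter (0.0828) or with quantile normalization (a difference of 0.57, adjusted p = 0.0839). This probe set lay under the filter on the aorta arrays alone and entered the tissue tests through the brain arrays, where it is high; with no filter it had an adjusted p of 0.00539 in Notch3 +/-.

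Adam10 showed the same kind of split. Its brightest probe set differed by -0.05 in Notch3 +/- (interval -0.38 to 0.28) and 0.10 in Notch3 -/- (interval -0.19 to 0.38) with overlapping arrays. The second was lower in brain: 37.5, 21.0, 36.6 and 53.8 against 79.4, 79.2 and 93.0 in Notch3 +/- (difference -0.94, SE 0.25, adjusted p = 0.00831), and 60.9, 31.3, 21.9, 8.57 and 32.8 against 94.6, 93.7 and 93.6 in Notch3 -/- (difference -1.32, SE 0.30, adjusted p = 0.00159). Neither genotype had a brain array at an aorta level on that probe set. It lay under the brightness filter on the brain arrays alone, so it entered these tests through the aorta arrays, where it is high; with no filter the adjusted p was 0.0228 in Notch3 +/- and 0.0054 in Notch3 -/-, and without any 1 of the 3 Notch3 -/- aorta arrays it lay under the filter. Adam17 differed by -0.18 and -0.15 (adjusted p = 0.34 and 0.371) and Furin by 0.02 and -0.18 (adjusted p = 0.964 and 0.505), with intervals of -0.57 to 0.60 and -0.67 to 0.31 for Furin. Without brain array A, which had its highest Notch3 -/- value, Furin in Notch3 -/- differed by -0.37 (adjusted p = 0.045). Furin passed in that 1 of the 8 fits that left out 1 array.

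The 2 tissue comparisons share no arrays. Of the 12 member probe sets tested in both, 4 were called in both in the same direction (Mfng, the brightest of Rfng and the second of Psen2 higher, the second of Adam10 lower), beside 48.1% of all probe sets tested in both (24.4% higher and 23.7% lower). The second probe sets of Psen2 and Adam10 reached the filter only through the tissue where they are high, so this count does not support a pattern of the members. Mfng and Rfng were called on leaving out any 1 array, with differences of 2.11 to 2.39 and 1.60 to 1.79 in Notch3 +/- and of 2.46 to 2.67 and 1.74 to 1.83 in Notch3 -/-. Leaving out aorta array 5558 lowered the Notch3 -/- count from 6 to 3, since the second Adam10 probe set then lay under the brightness filter and Pofut1 and the second Psen2 probe set did not pass.

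**Figure D3:**
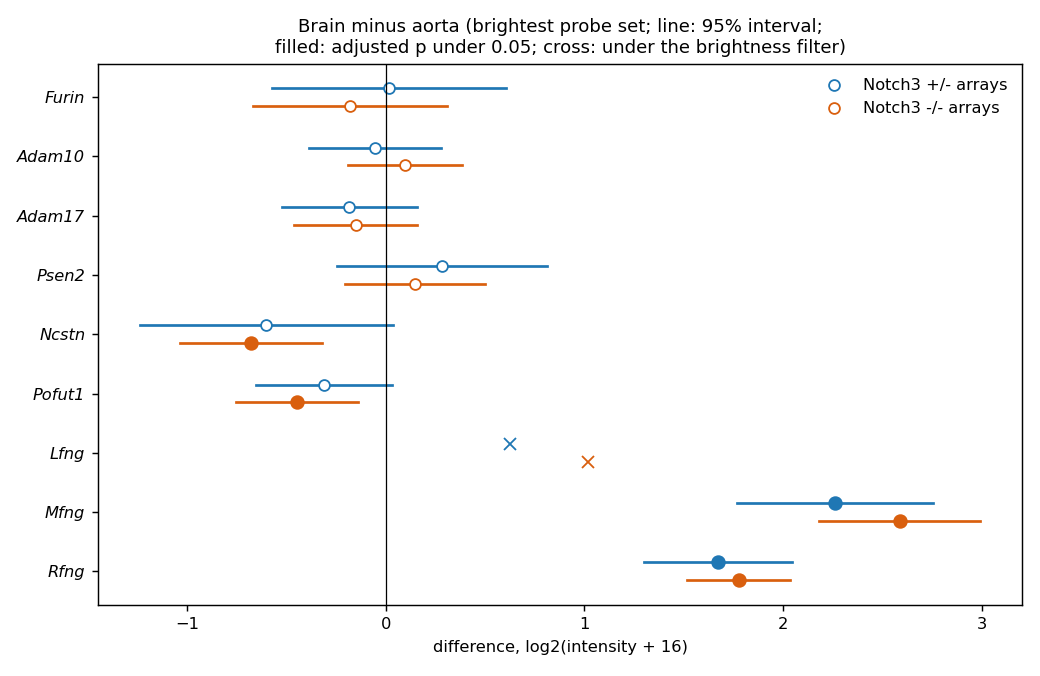
Difference of brain minus aorta on the log2(intensity + 16) scale for each member's brightest probe set, in Notch3 +/- (blue, 4 against 3 arrays) and Notch3 -/- (orange, 5 against 3), with limma 95% intervals. Filled points had an adjusted p under 0.05: Mfng and Rfng in both genotypes at 1.67 to 2.59, and Ncstn and Pofut1 in Notch3 -/- at -0.68 and -0.45; Lfng (crosses) was under the brightness filter.

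The brain arrays spread more than the aorta arrays for every member's brightest probe set. The pooled within-group SD of Mfng was 0.38 in brain and 0.13 in aorta (log2 scale), that of Rfng 0.19 and 0.06, that of Furin 0.48 and 0.17, and that of Ncstn 0.39 and 0.20. Across all tested probe sets the median SD was 0.31 in brain and 0.17 in aorta, and 83% of them spread more in brain, as the members did.

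Lfng, Mfng and Rfng spanned at least 1 log2 unit between group means, and for these 3 the genes with the most similar profile over the 15 arrays were sought by the root mean square difference of centred log2 values among about 11980 genes. Closest to Mfng were Mmrn2 (0.196), Hspa12b (0.21) and Cd40 (0.23), to Rfng Nisch (0.126), Tsc22d1 (0.139) and Laptm4b (0.145), and to Lfng Zmym3 (0.295), Fbxo7 (0.298) and Gsap (0.308). Mmrn2, for example, read 3286 and 3585 on average in the brain groups and 717 and 709 in the aorta groups. These are descriptions of profiles, and the search had no test.

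Other genes of the same steps of the pathway were read from lists set by function. In the genotype comparisons 0 genes of the 7 lists were called by limma in brain, in aorta or for the difference between them, where 0.191%, 0% and 0.0334% of all tested genes were (1 probe set a gene). The target genes of the pathway had the lowest list median in brain, -0.48 over 6 genes, with Heyl at -0.51 (adjusted p = 0.402), Hes1 at -0.66 (0.423), Hes5 at -0.58 (0.459), Nrarp at -0.45 (0.467), Hey2 at -0.22 (0.881) and Hey1 at 0.27 (0.804). In the O-glucose branch of the same glycosylation, Poglut1 was at 0.43 (adjusted p = 0.516) and Poglut2 at 0.36 (adjusted p = 0.447) in brain. Poglut3 (-0.03, adjusted p = 0.971) and Gxylt1 (0.03, adjusted p = 0.968) were near 0 there. In aorta Gxylt2 was at -1.23 (adjusted p = 0.947), and its difference between tissues was 1.61 (adjusted p = 0.705).

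Between tissues, in Notch3 +/- and then Notch3 -/-, 54.4% and 65.1% of all tested genes were called, with a median difference of 0.09 and 0.11. Of the 3 other γ-secretase subunits measured, 2 were higher in brain in each genotype and the presenilin enhancer Psenen was not called. Aph1a, a scaffold subunit, read 955 ± 383 (SD, n = 4) and 1031 ± 90.9 (n = 5) in brain against 172 ± 19.3 and 180 ± 16.1 in aorta (n = 3 each), differences of 2.31 and 2.42 (adjusted p = 2.35e-05 and 3e-09). Across the complex, Aph1a was higher in both genotypes and Psenen differed by -0.03 and -0.18. Ncstn differed by -0.60 and -0.68 and was called in Notch3 -/- alone. Its genotype difference was not called unlike between tissues (-0.08, adjusted p = 0.997).

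Of the sheddase regulators 5 of 8 tested were higher in Notch3 +/- brain and 0 lower, and 5 of 9 higher and 1 lower in Notch3 -/- brain. Tspan33 lay under the brightness filter on the aorta arrays alone and entered these counts through the brain arrays, where it is high. Tspan10, counted in Notch3 -/- alone, lay under the filter in both genotype comparisons. Tspan33 and Tspan15, tetraspanins that partner ADAM10, differed by 3.92 and 0.92 in Notch3 +/- and by 3.94 and 0.67 in Notch3 -/-, and Rhbdf1, the iRhom that carries ADAM17 to the surface, by 1.22 and 1.10. Timp3, an inhibitor of ADAM17, lay below aorta in brain, at -0.88 in Notch3 -/- (adjusted p = 0.0343) and -0.22 in Notch3 +/- (adjusted p = 0.39). Its genotype difference was not called in brain (-0.55, adjusted p = 0.605), nor was it called unlike between tissues (-0.66, adjusted p = 0.997). Timp3 read 1644 ± 1064 (SD, n = 5) in Notch3 -/- brain. Of 6 other ADAM genes, Adam15 and Adam12 were higher in brain in both genotypes and Adam9 and Adam19 lower, joined by Adam33 among the lower ones in Notch3 -/-. The convertases related to Furin split too: Pcsk7 rose by 0.90 and 0.91, while Pcsk6 (-1.03 and -0.71) and Pcsk5 (-3.56 and -2.94) were lower.

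Of 12 other genes of Notch O-glycosylation, 3 were higher and 7 lower in Notch3 +/- brain, and of 11 tested in Notch3 -/-, 3 were higher and 6 lower. The higher ones were Eogt, which adds O-linked N-acetylglucosamine to EGF repeats (2.50 and 2.89), the fucose kinase Fcsk (2.17 and 2.36) and Poglut2 (0.46 and 0.76). Among the lower ones, B4galt1, which adds galactose to the Fringe product, was at -1.45 and -1.69, Poglut3 at -1.54 and -1.70 and Poglut1 at -0.83 and -0.47. Receptors and ligands had 4 higher and 1 lower of 7 tested in Notch3 +/-, and 5 higher and 3 lower of 8 in Notch3 -/-, with Notch1 at 2.58 and 2.49, Notch4 at 2.03 and 1.89 and Notch2 at -2.10 and -2.02. Of 6 target genes 4 were higher and 1 lower, then 4 higher and 2 lower, with Hes5 the farthest at 4.90 and 4.61 and Hey2 at -2.44 and -2.78. Some genes reached the brightness filter only through the tissue where they are high. Gxylt2 and Xxylt1 lay under it on the brain arrays alone. On the aorta arrays alone, 5 of 8 receptors and ligands (not Jag2, Dll3 or Dll4) and 5 of 6 target genes reached it. The counts therefore do not support a pattern of these lists.

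**Figure D4:**
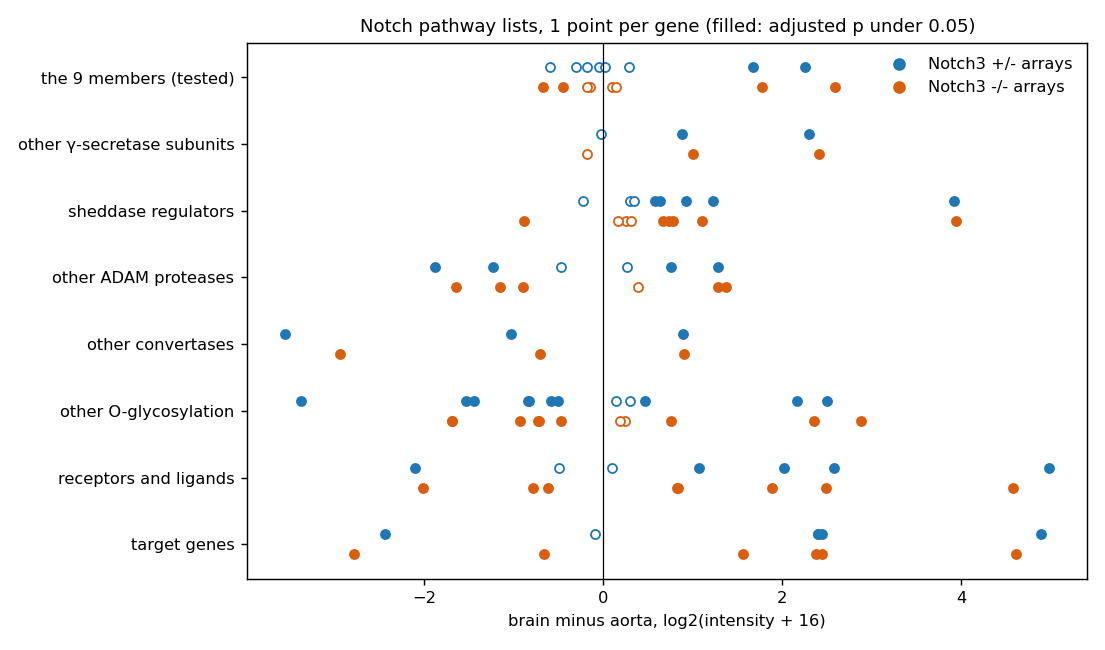
Difference of brain minus aorta on the log2(intensity + 16) scale, 1 point per tested gene at its brightest probe set, in Notch3 +/- (blue) and Notch3 -/- (orange), for the 9 members and 7 lists of pathway genes; filled points had an adjusted p under 0.05. Every list but the γ-secretase subunits has filled points on both sides of 0 in Notch3 -/-, and the members lie between -0.68 and 2.59.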

How the data were processed

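Total RNA was hybridised to Affymetrix mouse arrays, 15 μg of cRNA each. The deposited values are linear intensities, 1 per probe set, which the authors scaled to a target of 150, per the study's design text. How probes were summarised and background was removed: not given in the sources used here. The trimmed mean was 150 on all 15 arrays. Of 45101 probe sets, 64 controls were left out; 34958 named 1 gene in the platform annotation, 932 several and 9211 none, and 34754 symbols were updated by Entrez ID. Values were taken as log2(intensity + 16), and probe sets at or above the 50th percentile of mean brightness were fitted with limma 3.58.1 (R 4.3.3; eBayes with trend) on the groups compared, with Benjamini-Hochberg adjustment over all tested; members under the filter had a two-sided exact permutation test over arrays. The number of arrays limits the precision, and no detection calls were used. The fits were tested on simulated data. All members were named, and other genes came from functional lists; members and lists were chosen with earlier results of these data known. Alternatives were pseudocounts of 1 and 64, no filter, quantile normalization, no trend, array weights, 1 fit of all 15 arrays, the array name series as a block in aorta, other probe sets and leaving out each array.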

Additional observations from a re-analysis of the deposited data

Results flagged for a closer look

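The dimmest Adam10 probe set read 29.2 on Notch3 -/- brain array A, where the other 4 Notch3 -/- brain arrays read 6.98 to 9.24. The gap to the nearest was 0.861 of the group's range, above the Dixon limit of 0.71 for 5 samples. It was 1 of 40 groups of brain arrays examined, and chance marks about 1 group in 20. All its values are dim, and no result rests on it.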

How the results depend on the processing

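The count of member probe sets called was 0 in all 3 genotype comparisons under every alternative, although in brain the count over all probe sets rose from 32 to 137 in 1 fit of all 15 arrays and to 52 with array weights and 50 with a pseudocount of 64, and fell to 18 with no filter. Between tissues the member count was 4 to 5 in Notch3 +/- and 5 to 6 in Notch3 -/- under other settings, and 4 to 6 and 3 to 6 on leaving out 1 array. Mfng and Rfng were called in all of these at their brightest probe sets. Ncstn in Notch3 +/- also passed with all 15 arrays in 1 fit (adjusted p = 0.0417), and Lfng in Notch3 -/- with no filter (1.02, adjusted p = 0.0287). With no filter the dimmer Rfng probe set was called lower in Notch3 +/- brain (-0.98, adjusted p = 0.0343), and the second Psen2 probe set did not pass in Notch3 -/- (adjusted p = 0.0828), nor with quantile normalization (0.0839).

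Differences changed sign at other probe sets, under a few settings and on leaving out 1 array; the cause was not tested. For the second probe set by brightness they were: brain genotype, Adam10 -0.24 and Adam17 -0.12; aorta genotype, Psen2 0.043, Ncstn 0.043 and Pofut1 -0.15; difference between tissues, Adam10 -0.38 and Adam17 -0.18; tissue in Notch3 +/-, Adam17 0.22, Ncstn 0.18, Pofut1 0.28 and Rfng -0.98; tissue in Notch3 -/-, Adam10 -1.32, Adam17 0.042, Ncstn 0.038, Pofut1 0.22 and Rfng -0.88. For the third they were Adam10 -0.40 in brain and -0.51 in aorta, Pofut1 -0.31 in aorta, 0.25 for the difference between tissues and 0.19 for tissue in Notch3 -/-, and Adam17 0.10 there. For the fourth, Adam10 was -0.14 in brain, -0.10 in aorta, -0.045 for the difference between tissues and 0.46 for tissue in Notch3 +/-. Array weights gave Rfng 0.049 in brain, Furin -0.0005 in aorta and Furin -0.17 for tissue in Notch3 +/-. Quantile normalization gave Psen2 0.0008 and Lfng 0.0069 in aorta, and a pseudocount of 1 gave Lfng 0.023 there.

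On leaving out 1 array, signs changed within these ranges, none of them called: in brain, Psen2 -0.28 to 0.0070, Ncstn -0.40 to 0.040 and Rfng -0.13 to 0.060; in aorta, Psen2 -0.20 to 0.098, Ncstn -0.22 to 0.012, Pofut1 -0.070 to 0.081, Lfng -0.15 to 0.17 and Furin -0.11 to 0.11; for the difference between tissues, Adam17 -0.037 to 0.090, Psen2 -0.26 to 0.035, Ncstn -0.31 to 0.13 and Rfng -0.0079 to 0.18; for tissue in Notch3 +/-, Furin -0.15 to 0.24. No paired analysis was possible because the groups compared share no replicate names. Low intensities, such as those of both Lfng probe sets, limit what these arrays can show.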
